A study of Mus musculus with 44 samples.

Results

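The 46 genes described here encode proteins that build ribosomes: RNA polymerase I and its factors, the enzymes that modify ribosomal RNA, nucleolar chaperones, and the assembly factors of the small and the large ribosomal subunit. They were taken by symbol from a list chosen with earlier results of these data known, and all 46 were found among the 55416 genes of the count table and passed the filter on low counts. The libraries hold messenger RNA of mouse CD4+ T cells (strain C57BL/6NTac) with a miR-150 knock-in (KI), a miR-150 knockout (KO) or the wild-type allele (WT); how the alleles were made was not given in the sources used here. Naive CD4+ cells were sorted from the spleen and plated at 150000 cells per well on coated anti-CD3 with soluble anti-CD28 for 3 days. Treg cultures also received TGF-b1 and anti-IFN-g, Th1 cultures received IL-12 and anti-IL4, and Th0 cultures received neither pair. Each group had 5 libraries except Th0 KI with 4, which made 44 libraries in 9 groups. MicroRNA-150 is known as an abundant microRNA of resting lymphocytes.

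Ribosome production starts in the nucleolus, where RNA polymerase I copies the ribosomal DNA repeats into a long precursor. Small nucleolar ribonucleoproteins (snoRNPs) guide the modification of that precursor, and a series of assembly factors folds and cuts it while ribosomal proteins join. In T cells the pathway is switched on soon after antigen receptor engagement, when the cell grows before dividing, and MYC is a known activator of many of its genes.

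Library totals were 60815821 to 137415965 counts, and the 46 genes took between 0.608% and 1.84% of the counts of a library. Levels are given as CPM, the usual count scaled by library size, with TMM factors, which adjust library sizes to a shared bulk of genes. Counts at the Mir150 gene were 0 to 2 per library and summed to 0 in 15 KO, 7 in 14 KI and 6 in 15 WT libraries, too few to check the genotype labels. Cd4 was read at 289.1 to 697 CPM in Treg, 168.7 to 485 CPM in Th1 and 241.7 to 567 CPM in Th0 libraries, and Cd3e at 144.9 to 265.2, 98.97 to 136.4 and 80.3 to 159.5 CPM in the same order of cultures. Foxp3, the defining factor of regulatory T cells, was at 47.7 to 596 CPM in Treg libraries, against 0.569 to 4.35 CPM in Th1 and 0.362 to 3.19 CPM in Th0 libraries. The Treg libraries with the least Foxp3 were WT 4 with 47.7 CPM, KI 3 with 61.97 CPM, KO 2 with 77.4 CPM and WT 3 with 158.7 CPM. Libraries numbered WT 4, KI 3 and KO 2 also held the most Cd8a of their genotype among Treg libraries, at 442.6, 317.6 and 73.1 CPM. The same numbers held the most Cd8a of their genotype among Th0 libraries, at 112.7, 107.5 and 20.5 CPM. In Th1 this held for WT 4 (131.5 CPM) and KI 3 (107.4 CPM), while KO 3 (31.7 CPM) exceeded KO 2 (21.3 CPM). The labels do not say whether a number marks an animal or a culture, so p-values measure the spread between these libraries, which may be technical.

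On average the ribosome biogenesis genes formed an order over the cultures, lowest in Treg and highest in Th0. The mean log2 CPM of the 46 genes was 6.34 ± 0.11 in Treg KI, 6.32 ± 0.20 in Treg KO and 6.43 ± 0.40 in Treg WT libraries (SD, n = 5 each). It was 7.11 ± 0.21 in Th1 KI, 7.08 ± 0.26 in Th1 KO and 7.29 ± 0.18 in Th1 WT libraries (SD, n = 5 each). In Th0 it was 7.32 ± 0.12 in KI (SD, n = 4), 7.45 ± 0.23 in KO and 7.54 ± 0.14 in WT libraries (SD, n = 5 each). The highest Treg library, at 6.995, lay below the lowest Th0 library, at 7.13, so these cultures did not overlap. Treg and Th1 did overlap, as Th1 KO 2, at 6.63, and Th1 KI 3, at 6.78, lay below the highest Treg library. Th1 and Th0 overlapped as well, with libraries at 6.63 to 7.55 in Th1 and 7.13 to 7.69 in Th0. As a share of all counts the genes took 0.608% to 1.04% in Treg, 0.865% to 1.84% in Th1 and 1.09% to 1.72% in Th0 libraries. The median CPM followed the order Treg, Th1, Th0 in 43 of the 46 genes, and the share of all genes with this order was not computed. For 24 genes every Treg library lay under every Th0 library, for 1 gene, Nip7, every Treg library lay under every Th1 library, and for 0 genes was every Th1 library under every Th0 library. Over all 21873 genes tested these shares were 2.37%, 1.5% and 0.11% in the same order.

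**Figure D1:**
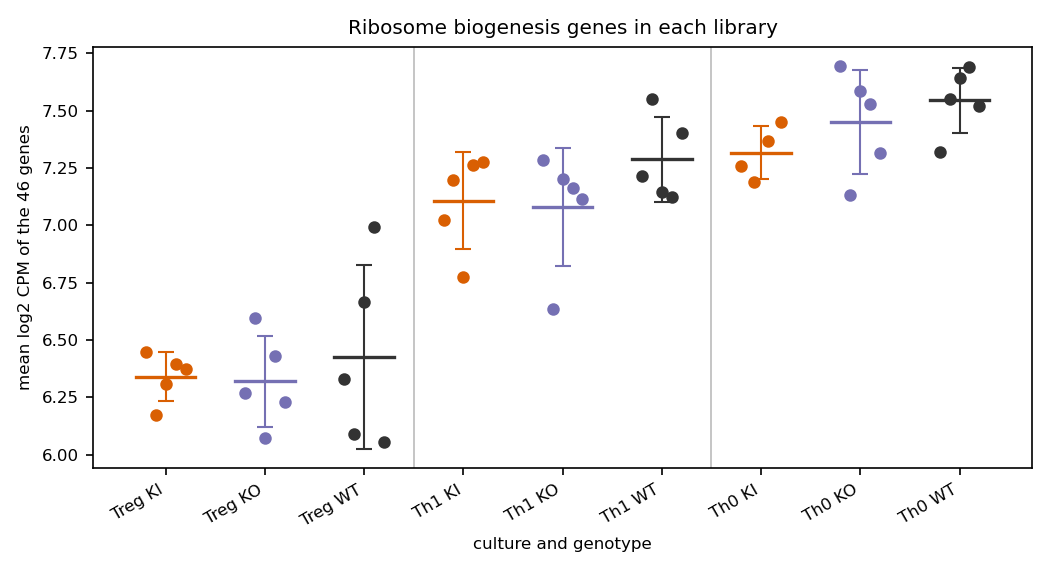
Mean log2 CPM of the 46 ribosome biogenesis genes (vertical axis) in each library, by culture and genotype; points are libraries, horizontal lines are means and bars are SD. The 15 Treg libraries lie between 6.05 and 6.995 and the 14 Th0 libraries between 7.13 and 7.69.

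CPM values compare a gene between libraries, not genes with each other. Per kilobase of the annotated transcript with the longest coding sequence, the levels in Th0 WT libraries spanned 22.4 (Imp4) to 2043 (Npm1) CPM per kilobase. Npm1 stood at 1172 CPM per kilobase in Treg WT and 2043 in Th0 WT libraries, followed by Ncl at 224 in Treg WT and 458 in Th0 WT libraries. The chosen Ncl transcript is 8202 bases long, and these levels depend on the transcript chosen.

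The comparison of Treg with Th0 asks how the cytokine conditions bear on the genes under the same receptor stimulus. All 46 genes were lower in Treg WT than in Th0 WT, with a median log2 fold change of -1.05, against 0.02 over all 21873 genes tested. Among all genes tested, 15.7% were called lower and 17.4% higher. A call here and below means a p under 0.05 in the quasi-likelihood test of edgeR after Benjamini-Hochberg adjustment over all genes tested. Every one of the 6 roles took part: 6 of 6 RNA polymerase I genes, 3 of 3 box C/D and 4 of 4 box H/ACA snoRNP genes, 5 of 5 nucleolar chaperones, 15 of 15 small-subunit and 13 of 13 large-subunit factors were lower. The role medians ran from -1.21 for the large subunit through -1.05 for the small subunit, -1.04 for box C/D snoRNPs, -1.03 for chaperones and -0.96 for RNA polymerase I to -0.95 for box H/ACA snoRNPs. For 39 of the 46 genes the 5 Treg WT and the 5 Th0 WT libraries did not overlap; over all genes tested, 7.89% had every Treg WT library under every Th0 WT library. These are bulk libraries, so fewer cells of a type and less RNA per cell cannot be told apart.

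RNA polymerase I transcribes the ribosomal RNA precursor, and its largest subunit is encoded by Polr1a (chr6:71909053-71984935; coordinates here are GRCm38, from GENCODE). Polr1a had 120.6, 98.4, 164.1, 178.97 and 96.6 CPM in Treg WT libraries, against 322, 288.8, 295.3, 288.7 and 231.5 CPM in Th0 WT libraries. All 5 Treg WT libraries lay below all 5 Th0 WT libraries, and the log2 fold change was -1.11 (SE 0.18, edgeR adjusted p = 8.09e-06). Polr1b (chr2:129100995-129126594), another subunit of its catalytic core, had 53.1, 45.9, 70.02, 89.6 and 41.9 CPM in Treg WT libraries, against 135.8, 150.9, 165.7, 182.3 and 130.7 CPM in Th0 WT libraries. Its groups did not overlap either, and with a log2 fold change of -1.35 (SE 0.21, edgeR adjusted p = 6.2e-06) it had the largest change of the 6 genes of this role. Rrn3 (chr16:13780708-13814839) recruits the polymerase to its promoter and had 74.6, 69.3, 112.1, 116.1 and 68.7 CPM in Treg WT libraries, against 167.6, 165.7, 189.1, 184.6 and 182.1 CPM in Th0 WT libraries. The groups were apart, and the log2 fold change was -1.01 (SE 0.16, edgeR adjusted p = 7.77e-06). Polr1c, a subunit shared with RNA polymerase III, and Polr1e fell by 0.92 and 0.70 on the log2 scale.

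Ubtf (chr11:102304560-102319742), which binds along the ribosomal DNA and keeps it accessible, changed least of the 46. It had 209.1, 189.1, 151.01, 194.7 and 185.3 CPM in Treg WT libraries, against 202.6, 257.9, 258.2, 241.4 and 238.5 CPM in Th0 WT libraries. One Treg WT library lay inside the Th0 WT range, and the log2 fold change was -0.37 (SE 0.14, edgeR adjusted p = 0.0337). In the knock-in Ubtf had 195.1, 203.7, 142.97, 207.1 and 223.2 CPM in Treg KI libraries, against 170.6, 181.5, 199.3 and 214.97 CPM in Th0 KI libraries. Here the groups overlapped and the log2 fold change was 0.02 (SE 0.14, edgeR adjusted p = 0.931). The WT change did not pass the edgeR threshold without Treg WT 2, Treg WT 3, Th0 WT 2 or Th0 WT 3, where the log2 fold change was -0.36, -0.31, -0.34 and -0.33 in that order.

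Box C/D snoRNPs methylate ribosomal RNA, with fibrillarin as the enzyme and NOP56 and NOP58 as core proteins. Fbl (chr7:28169710-28179269), the fibrillarin gene, had 125.3, 98.8, 112.9, 163.4 and 90.3 CPM in Treg WT libraries, against 158.6, 220.6, 230.9, 221.03 and 216.7 CPM in Th0 WT libraries. Treg WT 4 at 163.4 CPM reached above the lowest Th0 WT library at 158.6 CPM, and the log2 fold change was -0.83 (SE 0.15, edgeR adjusted p = 5.36e-05). Nop56 (chr2:130274430-130279313) had 259.2, 209.1, 429, 513 and 215.7 CPM in Treg WT libraries, against 610.3, 712, 729, 809 and 659 CPM in Th0 WT libraries. Both Treg WT 3 and Treg WT 4 were high within their group, the groups did not overlap, and the log2 fold change was -1.11 (SE 0.19, edgeR adjusted p = 2.51e-05). Nop58 (chr1:59684971-59719044) had 166.6, 171.2, 249.6, 245.1 and 178.7 CPM in Treg WT libraries, against 335, 438, 390.3, 431 and 481 CPM in Th0 WT libraries. The groups did not overlap, and the log2 fold change was -1.04 (SE 0.19, edgeR adjusted p = 5.71e-05).

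Box H/ACA snoRNPs convert uridine to pseudouridine, and dyskerin is their enzyme. Its gene Dkc1 (chrX:75095854-75109777) had 163.6, 168.9, 229.8, 214.4 and 158.1 CPM in Treg WT libraries, against 326, 407, 346, 388 and 452 CPM in Th0 WT libraries. The 5 Treg WT libraries all lay below the 5 Th0 WT libraries, and the log2 fold change was -1.04 (SE 0.19, edgeR adjusted p = 4.46e-05). The partner proteins Gar1, Nhp2 and Nop10 fell by 0.83, 1.20 and 0.87 on the log2 scale.

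Among the nucleolar chaperones, nucleolin and nucleophosmin are the best known and bind the ribosomal RNA precursor and its proteins. Ncl (chr1:86344719-86359400), the nucleolin gene, had 1518, 1644, 2309, 2211 and 1507 CPM in Treg WT libraries, against 2903, 3862, 3616, 4068 and 4342 CPM in Th0 WT libraries. The groups did not overlap, the level in Treg WT was 0.489 times that in Th0 WT, and the log2 fold change was -1.03 (SE 0.18, edgeR adjusted p = 4.21e-05). Npm1 (chr11:33152287-33163206), the nucleophosmin gene, had 1575, 1935, 2256, 1947 and 1853 CPM in Treg WT libraries, against 2362, 3643, 3023, 3485 and 4167 CPM in Th0 WT libraries. The lowest Th0 WT library lay just above the highest Treg WT library, and the log2 fold change was -0.80 (SE 0.18, edgeR adjusted p = 0.000518). Nolc1 (chr19:46075863-46085530), a chaperone of snoRNPs, had 184.1, 131.9, 260.7, 352 and 126.5 CPM in Treg WT libraries, against 465, 562, 599.9, 601 and 548 CPM in Th0 WT libraries. The Treg WT libraries varied among themselves by more than those of Th0 WT but stayed below them, and the log2 fold change was -1.40 (SE 0.21, edgeR adjusted p = 3.99e-06). Mybbp1a (chr11:72441355-72451768), a nucleolar protein that also binds MYB, had 323, 241.01, 396, 619.7 and 225.4 CPM in Treg WT libraries, against 778, 764, 949, 982 and 659.8 CPM in Th0 WT libraries. The highest Treg WT library came close to the lowest Th0 WT library without reaching it, and the log2 fold change was -1.20 (SE 0.20, edgeR adjusted p = 1.48e-05).

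Small-subunit factors act in the processome that forms on the precursor and in the steps that follow. Rrp12 (chr19:41862851-41896173), which in yeast takes part in nuclear export of subunit precursors, had 41.4, 30.8, 45.3, 102.8 and 28.9 CPM in Treg WT libraries, against 105.4, 121.8, 154.8, 167.3 and 110.4 CPM in Th0 WT libraries. Treg WT 4 stood at more than the level of any other Treg WT library and just under the lowest Th0 WT library, and the log2 fold change was -1.40 (SE 0.25, edgeR adjusted p = 3.08e-05). Bysl (chr17:47599331-47611492), the bystin gene, had 36.8, 30.8, 43.9, 77.8 and 29.2 CPM in Treg WT libraries, against 79.7, 80.1, 106.2, 104.6 and 66.8 CPM in Th0 WT libraries. Treg WT 4 lay inside the Th0 WT range here, and the log2 fold change was -1.002 (SE 0.20, edgeR adjusted p = 0.000215). Nob1 (chr8:107412486-107425051), the endonuclease that makes the last cut of the small-subunit RNA, had 45.2, 32.7, 42.2, 62.8 and 36.01 CPM in Treg WT libraries, against 68.6, 84.3, 97.5, 97.4 and 81.7 CPM in Th0 WT libraries. The groups did not overlap, and the log2 fold change was -0.97 (SE 0.15, edgeR adjusted p = 3.64e-06). In this role the changes ran from -1.43 for Utp20, a processome scaffold protein, to -0.58 for Imp3, a processome protein. Imp3 had 25.8, 22.6, 29.02, 28.8 and 22.9 CPM in Treg WT libraries, against 33.1, 38.5, 42.3, 38.6 and 40.3 CPM in Th0 WT libraries, which did not overlap.

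In WT the large-subunit factors had the lowest role median. BOP1 and PES1 form a complex with WDR12 that is needed for large-subunit RNA processing. Bop1 (chr15:76452989-76477277) had 68.1, 44.8, 66.1, 142.6 and 39.7 CPM in Treg WT libraries, against 120.1, 137.7, 181.3, 176.2 and 118.3 CPM in Th0 WT libraries. Treg WT 4 lay inside the Th0 WT range, the other 4 Treg WT libraries lay well below it, and the log2 fold change was -1.02 (SE 0.23, edgeR adjusted p = 0.000608). Pes1 (chr11:3963975-3980004) had 116.5, 96.5, 150.05, 182.4 and 98.9 CPM in Treg WT libraries, against 194.3, 238.03, 219.3, 254.8 and 219.8 CPM in Th0 WT libraries. The groups did not overlap, and the log2 fold change was -0.81 (SE 0.12, edgeR adjusted p = 4.69e-06). Gnl3 (chr14:31012433-31019152), which encodes the nucleolar GTPase nucleostemin, had 100.9, 97.9, 146.7, 138.3 and 113.8 CPM in Treg WT libraries, against 237.01, 308, 263.04, 306 and 334 CPM in Th0 WT libraries. These groups were far apart, and the log2 fold change was -1.28 (SE 0.19, edgeR adjusted p = 2.85e-06).

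The largest changes of the list were those of Ppan, Grwd1 and Utp20. Ppan, whose yeast relatives act in large-subunit maturation, had 30.1, 19.4, 26.2, 56.2 and 17.8 CPM in Treg WT libraries, against 72.4, 78.4, 118.2, 102.7 and 72.5 CPM in Th0 WT libraries, and the log2 fold change was -1.57 (SE 0.24, edgeR adjusted p = 5.26e-06). Grwd1, a WD-repeat protein of ribosome assembly, had 22.1, 13.9, 19.4, 43.8 and 14.7 CPM in Treg WT libraries, against 48.7, 64.6, 78.9, 78.9 and 54.3 CPM in Th0 WT libraries, and the log2 fold change was -1.51 (SE 0.27, edgeR adjusted p = 4.2e-05). For both genes the highest Treg WT library was WT 4 and lay under every Th0 WT library. Utp20 had 119.2, 113.8, 170.1, 174.1 and 108.5 CPM in Treg WT libraries, against 319, 393, 354, 355 and 429 CPM in Th0 WT libraries, and the log2 fold change was -1.43 (SE 0.22, edgeR adjusted p = 6.64e-06). Its groups were apart by more than the whole range of the Treg WT libraries.

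MYC and its partner MAX bind the E-box, and promoters of the members are therefore shown for it. RefSeq promoters on GRCm38.p6, from 250 bases before to 50 bases after the gene start, were found for 42 of the 46 genes. The canonical E-box CACGTG, which reads the same on both strands, was present in 10 of 42 genes (23.8%), against 8.09% of all 27025 genes with a promoter and 10.7% of the 12845 among them that were tested. The variant CACGCG, searched on both strands and sharing no position with the canonical motif, was present in 14 of 42 genes (33.3%), against 10.5% of all and 17.6% of tested genes. Either motif was in 22 of 42 genes (52.4%), against 17.2% and 26.1%. The 10 genes with CACGTG were Grwd1, Imp4, Ltv1, Mybbp1a, Nop2, Pes1, Rrn3, Tsr1, Utp20 and Wdr43. Their median change in Treg WT against Th0 WT was -1.13, and that of the 32 without it was -1.04. Promoter stretches are shown for a polymerase factor and a large-subunit factor described above, both on the plus strand, with the E-box in capitals. In Rrn3 the motif starts at base -215 from the start site, with a further one at -48 outside the stretch, and in Pes1 at base 3 after it. The motif of Mybbp1a, at base 41, lies past the stretch that is shown for a gene.
Rrn3, chr16:13780449-13780549: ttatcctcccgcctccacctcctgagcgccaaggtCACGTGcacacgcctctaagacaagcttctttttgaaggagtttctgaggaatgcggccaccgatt
Pes1, chr11:3963917-3964004: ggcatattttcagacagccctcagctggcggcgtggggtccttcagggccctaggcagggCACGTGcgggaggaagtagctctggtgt
Both genes were lower in Treg than in Th0 in each genotype, with changes of -0.98, -1.05 and -1.01 for Rrn3 and of -0.68, -0.77 and -0.81 for Pes1 in KI, KO and WT. A motif match is a description of the letters in the window, and binding was not measured.

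The same comparison in the other genotypes is made on other libraries. All 46 genes were lower in Treg KO than in Th0 KO, where 15.9% of all genes were called lower, with a median log2 fold change of -1.14. In the knock-in 45 of 46 were lower in Treg than in Th0, with 16.9% of all genes called lower and a median of -1.02, and Ubtf was the gene not called. Groups did not overlap for 44 genes in KO and 43 in KI, against 11.2% and 12.1% of all genes with every Treg library under every Th0 library. Ncl had 1507, 2054, 1257, 1557 and 1324 CPM in Treg KO libraries, against 3623, 2654, 3659, 3245 and 3505 CPM in Th0 KO libraries. In the knock-in Ncl had 1641, 1289, 1291, 1804 and 1303 CPM in Treg libraries, against 2968, 2129, 3419 and 3111 CPM in Th0 libraries. No Treg library of either genotype reached the lowest Th0 library of its genotype. The changes of Ncl were -1.12 in KO and -0.99 in KI (SE 0.18 and 0.19, edgeR adjusted p = 1.22e-05 and 0.000124). Ppan, Grwd1 and Polr1b changed most in KO, with log2 fold changes of -1.68, -1.67 and -1.56. Nip7, Wdr75 and Nop56 changed most in KI, at -1.48, -1.40 and -1.36. The smallest called changes were those of Ubtf (-0.36) and Imp3 (-0.59) in KO and of Rrp1b (-0.48) and Fbl (-0.51) in KI.

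**Figure D2:**
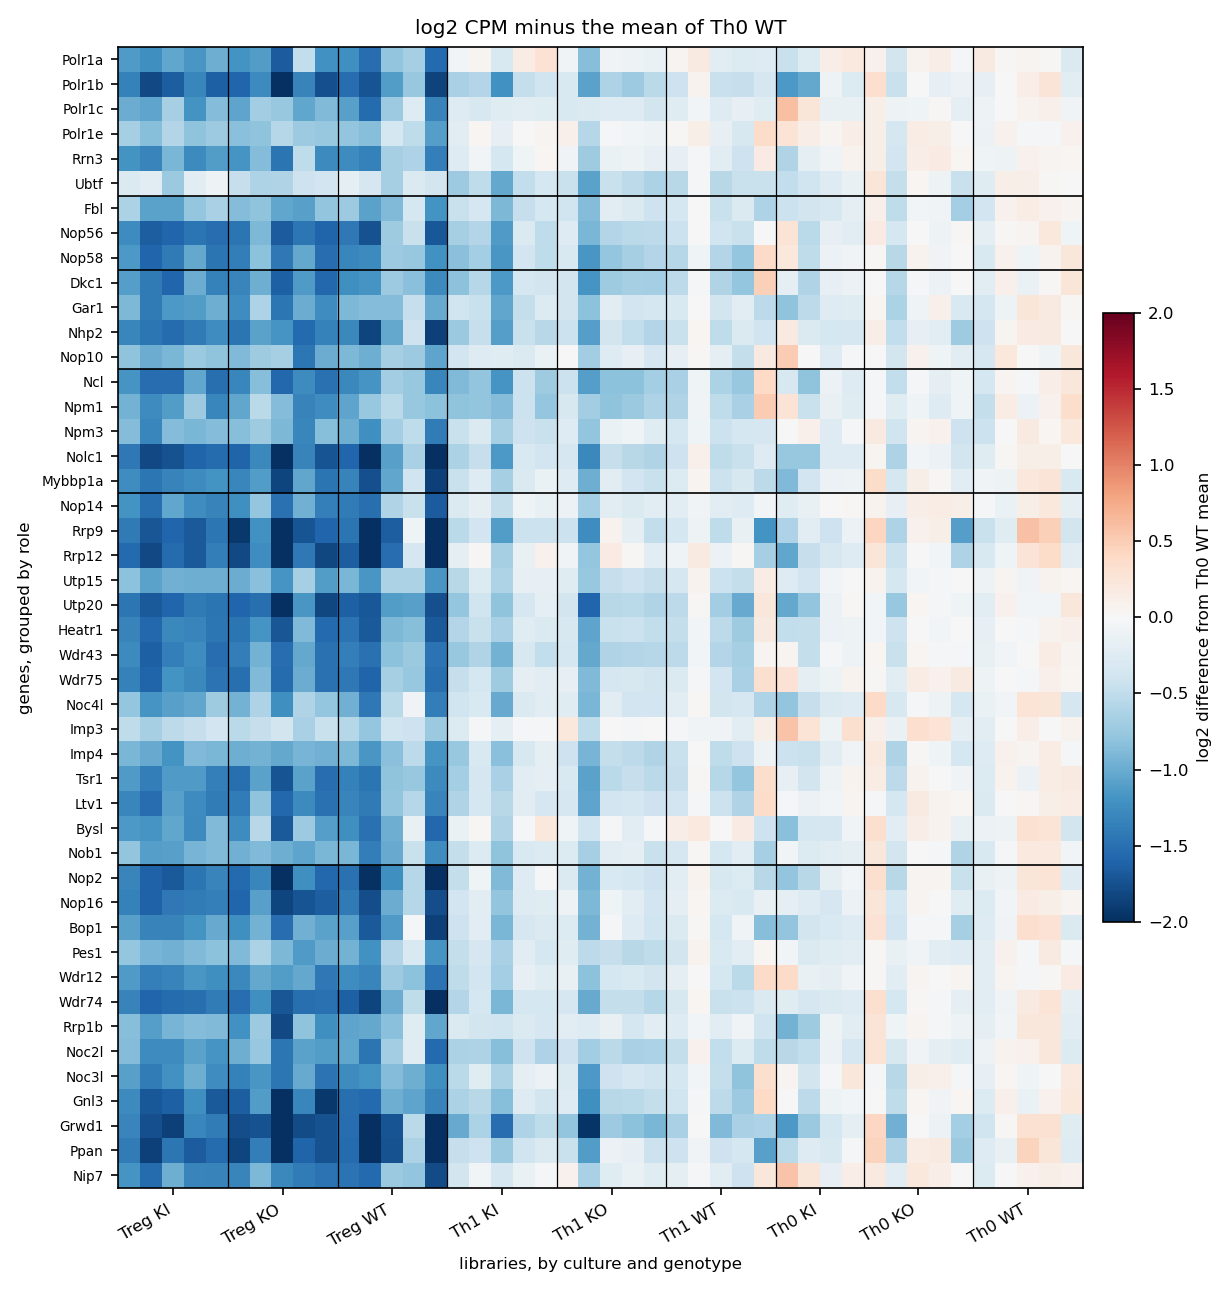
Difference in log2 CPM of each of the 46 genes (rows, grouped by role) in each of the 44 libraries (columns, grouped by culture and genotype) from the mean of the Th0 WT libraries; blue is lower, red is higher, and colours end at a difference of 2. The Treg libraries are blue for nearly every gene, and the row of Ubtf is among the palest in them.

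Against Th1, the other culture with added cytokines, Treg libraries were again lower. Of the 46 genes 45 were lower in Treg WT than in Th1 WT (15.2% of all genes called lower), 43 in KO (15% of all genes called lower) and 43 in KI (15.8% of all genes called lower), and 0 were higher in any genotype. The medians were -0.81 in KI, -0.79 in KO and -0.87 in WT. Rrp12 had 41.4, 30.8, 45.3, 102.8 and 28.9 CPM in Treg WT libraries, against 121.6, 146.9, 119.1, 131.4 and 81.8 CPM in Th1 WT libraries. Treg WT 4 exceeded Th1 WT 5, which was the lowest Th1 WT library, and the groups otherwise did not meet. Rrp12 had the largest change in each genotype, with a log2 fold change of -1.43 in KI, -1.52 in KO and -1.27 in WT (edgeR adjusted p = 2.32e-05, 1.12e-05 and 0.000133). Nop2, an RNA methyltransferase gene of the large subunit, followed in WT and KI with -1.12 and -1.16.

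The genes not called between Treg and Th1 were few. Ubtf had 209.1, 189.1, 151.01, 194.7 and 185.3 CPM in Treg WT libraries, against 163.4, 233.4, 162.3, 174.5 and 176.1 CPM in Th1 WT libraries. The groups overlapped throughout, and the log2 fold changes were 0.30 in KI, 0.12 in KO and 0.03 in WT (edgeR adjusted p = 0.0837, 0.566 and 0.893). Npm1 was not called in KO (log2 fold change -0.35, edgeR adjusted p = 0.128) or KI (log2 fold change -0.33, edgeR adjusted p = 0.154), and neither were Noc4l in KO (-0.41) and Fbl in KI (-0.34). In WT the smallest called change was that of Noc4l, -0.49 with an edgeR adjusted p of 0.0499. It did not pass with no filter, with the compared libraries alone, or in 24 of the 44 fits that each leave out 1 library. With only the Treg WT and Th1 WT libraries in the fit, 37 of the 46 genes were lower.

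Between Th1 and Th0 few of the genes were called. In WT 0 of the 46 genes were called in either direction by edgeR, against 0.818% of all genes called lower. An unadjusted p under 0.05 was found for 7 genes (15.2%), against 14.7% of all genes, and DESeq2 called 0. The median was -0.25 and 44 of 46 fold changes were below 0. Ncl had 2374, 3525, 2409, 2198 and 4919 CPM in Th1 WT libraries, against 2903, 3862, 3616, 4068 and 4342 CPM in Th0 WT libraries. Th1 WT 5 was the highest of all 10 libraries, the groups overlapped, and the log2 fold change was -0.28 (SE 0.18, edgeR adjusted p = 0.507). Npm1 had 2151, 3118, 2312, 2090.5 and 4667 CPM in Th1 WT libraries, against 2362, 3643, 3023, 3485 and 4167 CPM in Th0 WT libraries. Again Th1 WT 5 was the highest, and the log2 fold change was -0.22 (SE 0.18, edgeR adjusted p = 0.62). Without Th1 WT 5 the median of the 46 genes was -0.30 and 0 were called.

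In the knockout 7 of 46 genes were lower in Th1 than in Th0 and 0 higher, against 4.18% of all genes called lower. An unadjusted p under 0.05 was found for 24 genes (52.2%), against 25.1% of all genes. The 7 genes were Ncl, Nop58, Dkc1, Ubtf, Utp15, Wdr43 and Imp4, and the median over all 46 was -0.37. Ncl had 2760.3, 1739, 2107, 2106 and 2313 CPM in Th1 KO libraries, against 3623, 2654, 3659, 3245 and 3505 CPM in Th0 KO libraries. Th1 KO 1 lay just above the lowest Th0 KO library, and the log2 fold change was -0.60 (SE 0.18, edgeR adjusted p = 0.0324). Nop58 had 333, 184.1, 240.4, 259.5 and 275.5 CPM in Th1 KO libraries, against 419, 280.5, 431, 394 and 413 CPM in Th0 KO libraries, with 1 Th1 library above the lowest Th0 library, and the log2 fold change was -0.58 (SE 0.19, edgeR adjusted p = 0.0424). Dkc1 had 295.2, 169.2, 234.02, 241.6 and 238.5 CPM in Th1 KO libraries, against 381, 257.4, 374, 351 and 384 CPM in Th0 KO libraries, and the log2 fold change was -0.57 (SE 0.19, edgeR adjusted p = 0.0443). Same-numbered Th1 and Th0 libraries deviated together, and with genotype and number as a block 13 genes were lower in KO, all 7 of these among them. The count was 0 without Th0 KO 1, Th0 KO 3 or Th1 KO 2, 1 without Th0 KO 4, 2 without Th1 KO 4, and 3 without Th1 KO 3 or Th1 KO 5. It was 11 without Treg WT 5 and 15 without Th1 WT 5, both outside the groups compared, and 15 without Th0 KO 2. In 16 further fits without 1 library each it was 4.

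In the knock-in 14 genes (30.4%) had an unadjusted p under 0.05, against 21.2% of all genes, and the median was -0.22. By edgeR 2 of 46 genes were lower in Th1 than in Th0, against 2.94% of all genes called lower. They were Npm1 and Imp3. Npm1 had 1873, 1898, 1803, 2433 and 1914 CPM in Th1 KI libraries, against 3961, 2409.6, 2969 and 2772 CPM in Th0 KI libraries. The groups met at Th1 KI 4 and Th0 KI 3, and the log2 fold change was -0.61 (SE 0.19, edgeR adjusted p = 0.0415). Imp3 had 31.7, 37.9, 33.4, 37.6 and 37.3 CPM in Th1 KI libraries, against 57.1, 46.6, 35.6 and 47.9 CPM in Th0 KI libraries, and the log2 fold change was -0.39 (SE 0.12, edgeR adjusted p = 0.0457). Of the 44 fits that each leave out 1 library, 24 called 0 genes and 14 called 1, so these calls changed with most single libraries. The replicate block left 1 of these calls, that of Npm1, and in WT it made 1 call, Ubtf. Some members pointed the other way without being called: Rrp12 had 113.2, 131.1, 82.3, 117.1 and 136.99 CPM in Th1 KI libraries, against 62.8, 94.6, 103.5 and 107.97 CPM in Th0 KI libraries, and the log2 fold change was 0.33 (SE 0.26, edgeR adjusted p = 0.499).

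**Figure D3:**
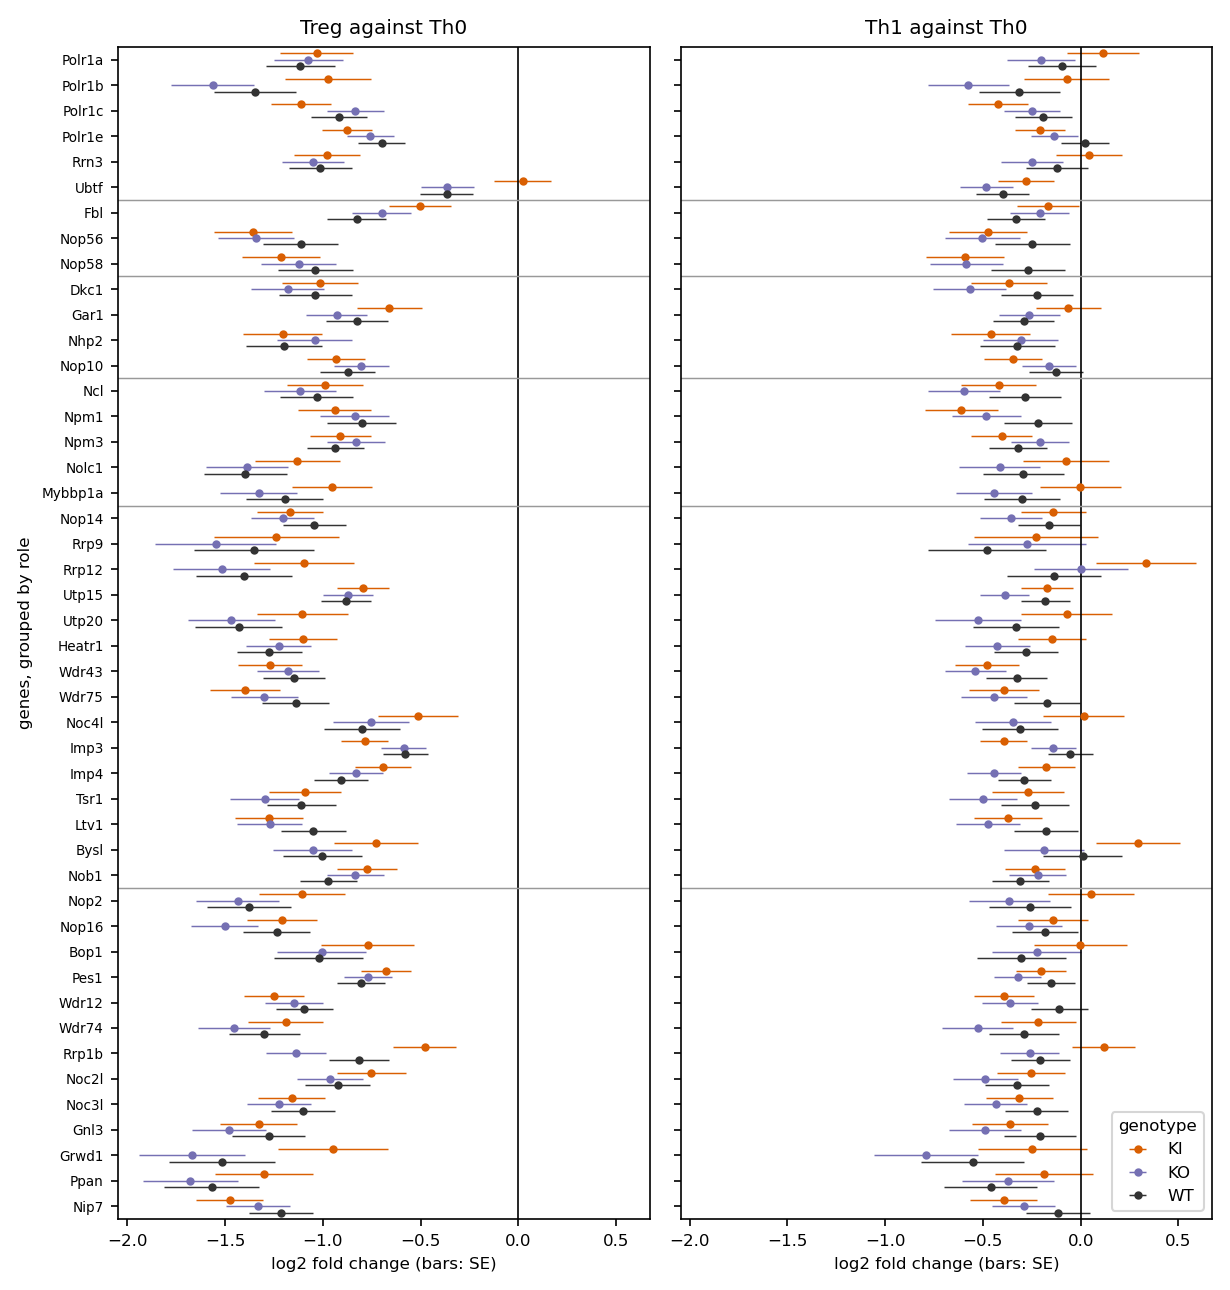
Log2 fold change of each of the 46 genes (rows, grouped by role) for Treg against Th0 (left) and Th1 against Th0 (right) in KI, KO and WT; points are estimates and bars are SE. On the left the points run from -1.68 to 0.02, with Ubtf nearest to 0, and on the right from -0.79 to 0.33.

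The comparisons of genotypes ask whether the level of the genes depends on the miR-150 allele within a culture. By edgeR 0 of the 46 genes were called in any of the 9 comparisons, and DESeq2 called 0 as well. In Treg the medians were -0.14 for KO against WT, -0.14 for KI against WT and -0.01 for KI against KO, with 0 genes at an unadjusted p under 0.05 in each. Over all genes 0.169%, 0% and 0.0229% were called in these 3 comparisons, and 10.1%, 8.04% and 7.78% had an unadjusted p under 0.05. In Th1 the medians were -0.22, -0.16 and 0.02, with 8, 5 and 0 genes at an unadjusted p under 0.05 and 0%, 0.0274% and 0% of all genes called. Over all genes 9.14%, 15.1% and 5.93% had an unadjusted p under 0.05 there. In Th0 they were -0.08, -0.22 and -0.14, with 0, 10 and 2 genes at an unadjusted p under 0.05 and 0%, 0.512% and 0% of all genes called, while 4.79%, 16.3% and 12.3% of all genes had an unadjusted p under 0.05. The comparisons within a culture share libraries, KO against WT and KI against WT sharing those of WT.

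Single genes show how wide the spread was. Polr1b had 68.7, 74.95, 141.1 and 126.1 CPM in Th0 KI libraries, against 135.8, 150.9, 165.7, 182.3 and 130.7 CPM in Th0 WT libraries. Th0 KI 1 and Th0 KI 3 were low and the other 2 KI libraries lay near or inside the WT range, and the log2 fold change was -0.58 (SE 0.22, edgeR adjusted p = 0.177). Grwd1 had the largest change in that comparison, a log2 fold change of -0.59 (SE 0.28, edgeR adjusted p = 0.292). Ncl in Th1 had 2760.3, 1739, 2107, 2106 and 2313 CPM in KO and 2021, 2151, 1652, 2759 and 2281 CPM in KI libraries, against 2374, 3525, 2409, 2198 and 4919 CPM in WT libraries. Th1 WT 2 and Th1 WT 5 were the high libraries of WT, and the changes were -0.48 for KO and -0.51 for KI (SE 0.18 and 0.18, edgeR adjusted p = 0.507 and 0.179).

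Whether a genotype altered the effect of a culture was tested directly as an interaction. For the Treg-Th0 effect 0 of 46 genes were called in KO against WT and 0 in KI against WT, and for the Th1-Th0 effect 0 in each, with 0 at an unadjusted p under 0.05 in all 4 tests by edgeR and 0 called by DESeq2. Over all genes the share called was 0%, 0%, 0% and 0%. At an unadjusted p under 0.05 it was 5.25%, 6.22%, 1.76% and 3.26%. The medians were -0.06 and 0.08 for Treg-Th0, and -0.16 and 0.06 for Th1-Th0. Ubtf, lower in Treg than in Th0 in KO and WT and not in KI, differed between KI and WT by 0.39 (SE 0.20, edgeR adjusted p = 0.806), which did not pass the test.

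Genes of neighbouring pathways were counted in the same fit, from lists chosen with earlier results known. Of the further ribosome biogenesis genes 98 were lower in Treg WT than in Th0 WT, 0 higher and 13 not called, with a median of -0.81. Rrp15 (log2 fold change -1.48, edgeR adjusted p = 1.7e-06) and Pwp2 (-1.46, edgeR adjusted p = 3.74e-06), assembly factors of the large and the small subunit, changed most. In the other genotypes 92 were lower and 19 not called in KO, and likewise 92 and 19 in KI. The 79 cytosolic ribosomal protein genes did not move in the same way: 1 was higher (Rps15a, 0.44) and 1 lower (Rps2, -0.40) in Treg WT, and their median was 0.07. Their summed level was 65454 to 76883 CPM in Treg WT, against 62004 to 72434 CPM in Th0 WT libraries. In the knockout 2 of the 79 were higher in Treg and 0 lower, with a median of 0.09. In the knock-in 16 of the 79 were lower in Treg and 0 higher, with a median of -0.27, against 16.9% of all genes called lower. The summed level reached 123328 CPM in Th0 KI 1 and 108625 CPM in Th0 KI 3.

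Myc itself had 137.8, 107.1, 162.5, 170.98 and 127.9 CPM in Treg WT libraries, against 240.9, 193.6, 293.1, 261.96 and 156.6 CPM in Th0 WT libraries. The groups overlapped through Th0 WT 5, and the log2 fold change was -0.70 (SE 0.17, edgeR adjusted p = 0.00191). It also fell in KO (-0.71, edgeR adjusted p = 0.00169) and KI (-0.67, edgeR adjusted p = 0.00432). The values in brackets that follow are log2 fold changes of called genes. The counts that follow stand beside 17.4% of all genes called higher and 15.7% called lower in Treg WT against Th0 WT. Of the 10 genes of the MYC network 4 were higher and 2 lower in Treg WT, and Mxd4 (3.64) and Mxd3 (1.81), which pair with MAX as repressors, were higher, while Mlx (-0.31), a partner of related factors, was lower. Among 14 genes of resting T cells 8 were higher and 2 lower, led by Klf2 (5.51) and S1pr1 (2.85), a transcription factor and the receptor for lymph node exit, and with Slfn2 (-1.10) and Satb1 (-0.87) as the lower ones. Among 22 cell cycle genes 2 were higher and 4 lower, 16 of the 22 changes were below 0, and the median was -0.21. Ccnb2 (0.66) and Mki67 were higher, and Mcm3 (-0.55), Ccne1 (-0.53), Cdk1 (-0.50) and Ccnb1 (-0.49) were lower. In the other genotypes the cell cycle counts were 4 higher and 1 lower in KO (median 0.05) and 4 higher and 2 lower in KI (median 0.10). Over all genes 15.9% were called lower in KO and 16.9% in KI. Mki67, a marker of dividing cells, had 1901, 2035, 1887, 1440.3 and 1959.9 CPM in Treg WT libraries, against 1287, 1355, 1114, 1098 and 1311 CPM in Th0 WT libraries. All 5 Treg WT libraries were above all 5 Th0 WT libraries for Mki67, and the log2 fold change was 0.58 (SE 0.16, edgeR adjusted p = 0.00392).

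**Figure D4:**
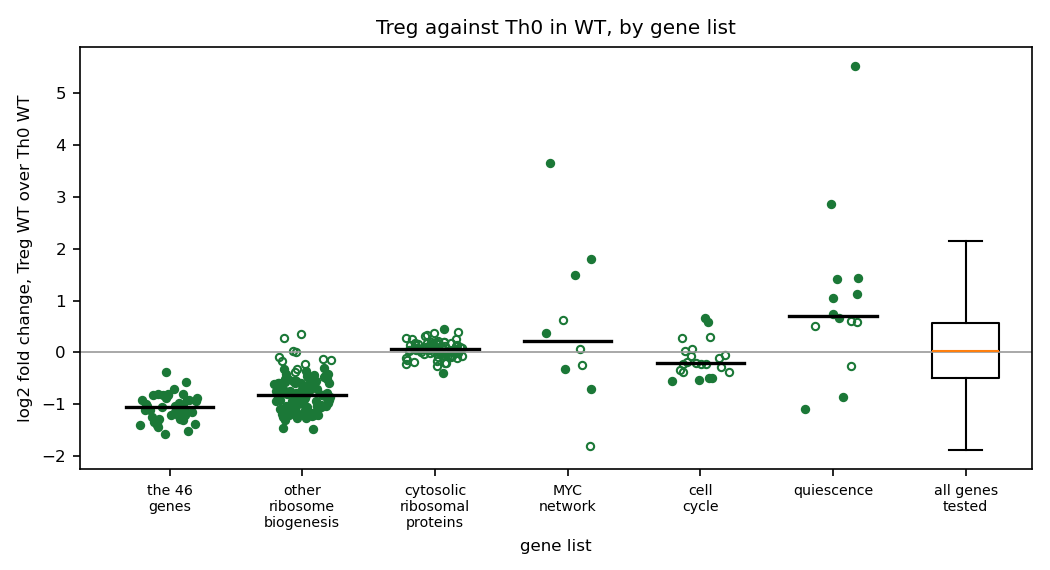
Log2 fold change of Treg WT over Th0 WT (vertical axis) for the genes of each list (horizontal axis); filled points passed the edgeR test, open points did not, and black lines are medians. The box shows the quartiles and median of all genes tested, with whiskers at the 5th and 95th percentile. The 46 genes all lie below 0, while the ribosomal protein genes have a median of 0.07.

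Some markers of other cells differed between the cultures, mainly those of myeloid and dendritic cells, and their part in the result was not tested. In Treg WT against Th0 WT 17.4% of all genes tested were called higher and 15.7% lower. Of 8 tested myeloid and dendritic markers 4 were higher in Treg WT than in Th0 WT and 0 lower, and the 10 listed summed to 9.68 to 57.7 CPM in Treg, 4.17 to 15.96 CPM in Th1 and 4.96 to 15.4 CPM in Th0 libraries over all genotypes. Siglech was at 0 in all 14 Th0 libraries and reached 0.306 CPM in Treg, and Clec9a reached 0.225 CPM in Treg libraries. Of 8 CD8 T and NK cell markers 1 was higher and 1 lower in Treg WT, and their sum was 20.8 to 927 CPM in Treg and 65.6 to 451 CPM in Th0 libraries. Of 8 B cell markers 0 were higher and 1 lower, with sums of 243 to 1193 CPM in Treg and 165 to 1894 CPM in Th0 libraries. Mitochondrial transcripts took 2.54% to 5.26% of counts in Treg and 2.39% to 4.38% in Th0 libraries.

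Some libraries departed from their group over nearly the whole list, and not only those with the least Foxp3. Treg WT 4 was above its group mean for 46 of 46 genes, by 0.57 log2 units on average, from 0.03 for Npm1 to 1.45 for Rrp9. It held the least Foxp3 and the most Cd8a of the Treg libraries, and without it the median of Treg against Th0 in WT was -1.19 with 46 genes lower. Treg WT 3 was above its group mean for 39 genes, by 0.24 on average. Treg WT 5 was below that mean for 45 genes (by -0.37 on average) and Treg WT 2 for 44 (by -0.34). Th0 WT 1 and Treg KI 2 were each below their group mean for 45 genes. Th1 WT 2, Th1 KO 1, Th1 KI 4 and Th0 KO 3 were each above theirs for 45. KO 2 lay below the group mean for 46 of 46 genes in Th0 (by -0.32 on average) and in Th1 (by -0.45), and above it for 44 genes in Treg (by 0.28). KI 3 was below its group mean for 44 genes in Th1 and 37 in Th0, and in Treg for 29, by -0.03 on average. Without WT 4, KO 2 and KI 3 in every culture, 46 genes were lower in Treg than in Th0 in KO and in WT and 45 in KI, with medians of -1.10 in KI, -1.34 in KO and -1.17 in WT. 

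Th1 WT 5 differed in another way: it split the list. Its deviations from the Th1 WT mean ran from 0.77 for Npm1 to -0.73 for Rrp9, with an SD over the 46 genes of 0.41, the widest of the 44 libraries. Across the 46 genes the deviation was related to the base composition of the transcript, whose G+C content ran from 41.03% to 59.8%, with a Spearman correlation of -0.89. The 23 genes of lower G+C content had a median deviation of 0.50 and the 23 others of -0.21. The same correlation was -0.86 in Th0 KO 5, 0.87 in Th0 WT 3, 0.84 in Th1 WT 4 and 0.68 in Treg WT 4; these libraries were chosen after their values were seen, and genes of 1 library are not independent. Over 8530 coding genes above 10 CPM on average, the correlation between the deviation and G+C content was -0.71 in Th1 WT 5, -0.74 in Th0 KO 5, 0.57 in Th0 WT 3, 0.58 in Th1 WT 4 and 0.47 in Treg WT 4, so it was not limited to the 46. The fold changes of Treg against Th0 in WT had a Spearman correlation of -0.07 with G+C content, and their median was -1.02 in the genes above and -1.05 in those below the median of 51.1%. In KI that correlation was 0.34, with medians of -0.95 above and -1.10 below, and in KO it was -0.02. For Th1 against Th0 this correlation was 0.45 in KI, 0.38 in KO and -0.41 in WT. Among the genotype comparisons it was largest in size for KO against WT in Th1 (0.57), KI against WT in Th0 (-0.53) and KI against KO in Th0 (-0.48). In KI against WT in Th0 the median fold change was -0.38 above and -0.14 below the median G+C content.

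**Figure D5:**
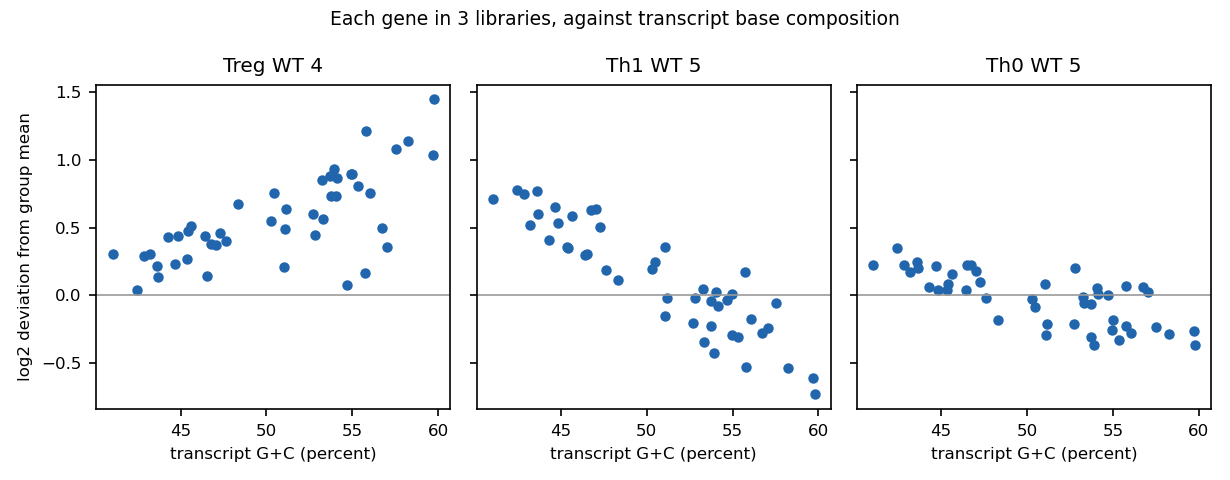
Deviation of each of the 46 genes from its group mean (vertical axis, log2) against the G+C content of its transcript (horizontal axis, percent) in Treg WT 4, Th1 WT 5 and Th0 WT 5. The deviations fall with G+C content in Th1 WT 5 and rise with it in Treg WT 4, where 46 of 46 lie above 0.

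Counting could also mix genes. Exons of 5 of the 46 genes overlap another gene on the same strand and those of 20 a gene on the opposite strand, 23 in all. Among them, Nop56, Ncl and Gnl3 hold named small nucleolar RNA genes, and Dkc1 meets Mpp1 on the other strand. The libraries were made with a strand-marking kit, and the strand setting of the counting was not given in the sources used here, so values of these 23 genes are uncertain to that extent. Npm3 has a pseudogene named after it, whose reads could be shared. Only pseudogenes named by the parent symbol followed by -ps were sought, so those of any member under other names were not counted.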

How the data were processed

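RNA was sequenced as paired reads of 150 bases from stranded poly(A) libraries, per the labels' protocols. The authors deposited a table of raw counts per gene with 2 lanes per library; its column names end as sorted alignments of STAR do, per the file headers, and no source used here gives the counter or its strand setting. Per the submitters' processing notes the build is GRCh38, although the gene identifiers are those of mouse; coordinates and transcripts here come from GENCODE vM21 (GRCm38), matched by identifier. A second deposited table of normalised values was not used. Lanes were summed per library (44 libraries, 60815821 to 137415965 counts), and 1492 of 55416 rows carried no gene name. Genes were filtered with filterByExpr by group, leaving 21873, and fitted in 1 model of 9 group means with edgeR 4.0.16 (TMM factors, quasi-likelihood test, R 4.3.3, limma 3.58.1); p-values were adjusted over all genes tested with the Benjamini-Hochberg method and called under 0.05. CPM are edgeR's with TMM factors. The code was tested on simulated data. Alternatives were DESeq2 1.42.0, RLE factors, no filter, fits of the compared libraries alone, 44 fits leaving out 1 library each, a fit without WT 4, KO 2 and KI 3, and a replicate block. The block was genotype and number for culture comparisons and interactions, and number alone for genotype comparisons.

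The members and lists were chosen with earlier results of these data known. Members shown with every library's value were chosen by role; further members named are the 3 called with the largest and the 3 tested with the smallest change in a comparison, and from other lists the 2 called genes with the largest change each way, with Myc always. Genes outside this rule that account for short counts, or that are singled out for a library or a genotype, were chosen after their values were seen. Of the further ribosome biogenesis genes listed, 1 was not found by symbol. Numbers in the labels are shared between groups. Deviations of same-numbered libraries from their group means correlated above 0.1 in every pair between Th0 and Th1 (0.245 to 0.422 in WT, 0.185 to 0.494 in KO, 0.147 to 0.552 in KI) and between Th0 and Treg in KO and KI (lowest 0.107 and 0.100), and not in every pair between Th0 and Treg in WT (lowest 0.0919), between Th1 and Treg, or between genotypes. The line at 0.1 is arbitrary, and several lowest pairs lay close to it. The mean over same-numbered pairs between Th0 and Treg was 0.221 in WT, 0.166 in KO and 0.243 in KI. Between Th1 and Treg it was 0.172 in WT, 0.159 in KO and 0.186 in KI. Same-numbered libraries of a genotype thus deviated together between all 3 cultures, most between Th1 and Th0, from the data and not from the labels.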

Additional observations from a re-analysis of the deposited data

Results flagged for a closer look

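In 171 groups of values of the members, the highest or lowest library was compared with its nearest neighbour by Dixon's ratio, which chance exceeds in about 1 of 20 groups. It was exceeded in 17, but the groups share libraries, and many genes shift together in a library. The count of 17 therefore cannot be set against that rate. For the mean log2 CPM of the 46 genes, Th1 KO 2 stood at 6.63, against 7.11 in the nearest library of its group. The same library was low for Polr1a (157.2 CPM, nearest 258.1) and Rrn3 (108.3 CPM, nearest 159.0). Th0 KO 2 was low for Nop58 (280.5 CPM), Dkc1 (257.4 CPM), Rrn3 (136.8 CPM) and Gnl3 (201.8 CPM). Treg KO 2 was high for Nop56 (375.2 CPM, nearest 257.7). Treg WT 4 was high for Rrp12 (102.8 CPM, nearest 45.3) and Bop1 (142.6 CPM, nearest 68.1). Th1 WT 2 was high for Polr1b (160.0 CPM, nearest 119.9) and Ubtf (233 CPM, nearest 176). Th1 KI 4 was high for Npm1 (2433 CPM), Th1 KI 3 low for Fbl (111.8 CPM), Th0 WT 1 low for Fbl (158.6 CPM), Th0 KI 3 low for Dkc1 (251.6 CPM) and Th1 KO 1 high for Pes1 (189.7 CPM). Of the 17 values, 8 came from the KO 2 libraries.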

How the results depend on the processing

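Treg against Th0 was called lower for 46 genes in WT and KO and 45 in KI with DESeq2, RLE factors, the compared libraries alone, the replicate block and without WT 4, KO 2 and KI 3, and for 46 in WT, 45 in KO and 44 in KI with no filter. Leaving out 1 library gave 45 to 46 in WT, 45 to 46 in KO and 43 to 45 in KI. Against Th1 the calls in either direction on leaving out 1 library were 42 to 45 in WT, 40 to 44 in KO and 41 to 44 in KI. Th1 against Th0 depended on the setting. In KO the 7 calls became 13 with DESeq2, 2 with no filter, 18 with the compared libraries alone and 13 with the replicate block, and 0 to 15 on leaving out 1 library. In KI the 2 calls became 0 with no filter, 0 with the compared libraries alone, 0 without WT 4, KO 2 and KI 3, and 1 with the replicate block, and 0 to 3 on leaving out 1 library. In WT the 0 calls became 1 with the replicate block and 0 to 1 on leaving out 1 library, the call coming without Th1 WT 2. KI against WT in Th0 gave 0 to 1 calls on leaving out 1 library, the call coming without Th0 KI 4; all other genotype comparisons and interactions gave 0 in each fit run. With the block, Treg against Th1 gave 44 calls in KO and 44 in KI, where Ubtf was called higher. Ubtf was also called in that KI comparison without Th1 KI 5 or without Treg KI 3. No other count moved by more than 1.5 times. The cause was not tested. For the 18 members shown in every library in Treg against Th0 in WT, and for the medians of the culture comparisons, 1346 values kept their direction and side of the threshold and 4 lost the call, all of Ubtf. In other comparisons further single calls were lost, among them those of Ubtf in Treg against Th0 in KO and of Noc4l in Treg against Th1 in WT and Treg against Th0 in KI. The smallest library held 60815821 counts. RNA content per cell was not measured, so lower CPM says nothing of amounts per cell.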
